A study of Mus musculus with 21 samples.

Results

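The VEGF ligands Vegfa, Vegfb and Vegfc, their receptor Flt1, the coreceptors Nrp1 and Nrp2, and the angiopoietin-type factors Angpt1, Angptl2 and Angptl4 were followed in cultured mouse fibroblasts that had lost Prrx1, a paired-related homeobox transcription factor. These 9 genes were taken by symbol from the RNA-seq count tables. All 9 were present, among 24447 genes that the tables share. The tables hold 21 cultures in 7 groups of 3. Mouse embryonic fibroblasts (MEFs) from C57BL/6 embryos harvested at embryonic day 10 to 13 were wild type (WT MEF), carried the germline Prrx1 allele of 129S-Prrx1tm1Jfm/Mmmh mice, a LacZ insertion, under the label knock-in (mutant MEF), or had been edited in culture with Cas9 and a guide against Prrx1 (sgPrrx1 MEF). Cancer-associated fibroblasts from breast tumors of FVB/NJ MMTV-PyMT mice (MMTV-CAF), whose tumors arise from a polyoma oncogene driven in mammary epithelium, were WT or sgPrrx1. Fibroblasts taken from a dorsal skin wound of C57BL/6 mice at day 10 were likewise WT or sgPrrx1. The control for edited cells carried a non-targeting guide, SgNS. Whether the WT MEF cultures, which served as control for both Prrx1-loss MEF groups, carried it was not stated. All primary cells had been immortalized with human papillomavirus oncogenes, and no source says whether the 3 cultures of a group came from separate animals or from 1 edited pool, so that every p-value measures the spread between these cultures alone.

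VEGF ligands are secreted dimers that act mainly on endothelial cells. VEGFA drives blood vessel sprouting through KDR (VEGFR2), while VEGFB binds FLT1 (VEGFR1), and VEGFC acts through FLT4 (VEGFR3) on lymphatic vessels. FLT1 binds VEGFA tightly but signals weakly, and a soluble form traps the ligand. Neuropilins are coreceptors shared by VEGFs and class 3 semaphorins. ANGPT1, made by perivascular mesenchymal cells, activates the endothelial receptor TEK (TIE2) and steadies vessels, whereas the angiopoietin-like proteins do not bind TEK: ANGPTL2 acts in tissue remodelling and inflammation, and ANGPTL4 inhibits lipoprotein lipase. Fibroblasts are a known source of these ligands in wounds and tumors. Counts here are per gene, so that secreted and membrane forms of FLT1, or the isoforms of VEGFA, cannot be told apart.

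The 3 VEGF ligand genes did not move together after Prrx1 loss, and their promoters are shown for that reason, each as the 250 bases before the RefSeq start on GRCm38.p6, written 5′ to 3′ on the gene's strand. Capitals mark GC boxes (GGGCGG or, on the other strand, CCGCCC), the binding motif of SP1-type factors.
Vegfa, chr17:46032378-46032627, minus strand: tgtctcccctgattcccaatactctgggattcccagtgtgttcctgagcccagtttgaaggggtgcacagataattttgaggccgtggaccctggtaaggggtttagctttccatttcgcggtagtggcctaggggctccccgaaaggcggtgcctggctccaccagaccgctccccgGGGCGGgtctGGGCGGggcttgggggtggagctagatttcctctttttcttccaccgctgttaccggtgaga
Vegfb, chr19:6987652-6987901, minus strand: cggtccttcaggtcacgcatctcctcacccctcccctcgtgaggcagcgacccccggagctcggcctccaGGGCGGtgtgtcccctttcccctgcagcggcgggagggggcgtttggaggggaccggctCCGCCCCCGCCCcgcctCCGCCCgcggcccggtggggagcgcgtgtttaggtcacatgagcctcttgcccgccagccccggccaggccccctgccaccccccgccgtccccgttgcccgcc
Vegfc, chr8:54077282-54077531, plus strand: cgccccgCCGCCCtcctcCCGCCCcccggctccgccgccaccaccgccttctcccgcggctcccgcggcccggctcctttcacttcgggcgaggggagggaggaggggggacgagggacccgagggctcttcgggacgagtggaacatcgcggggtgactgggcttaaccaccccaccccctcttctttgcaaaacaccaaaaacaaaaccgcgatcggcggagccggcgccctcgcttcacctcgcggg
The Vegfa window held 2 GC boxes, the Vegfb window 4 and the Vegfc window 2, and 32.7% of 32851 promoter windows of the same length held at least 1. The hypoxia response core ACGTG, on either strand, was in none of the 3 windows and in 16.6% of all windows. The homeodomain site TAATTA was likewise in none of the 3 and in 4.84% of all windows. A match or its absence describes these letters alone. Of the 9 genes, 7 matched the RefSeq promoter table, where Vegfa also has a start farther downstream, whose window (chr17:46025164-46025413) held 1 GC box and 1 hypoxia response core. Of 10 pieces of that window, 6 were found in annotated protein-coding transcripts, against 0 of 10 for the Vegfa window shown. The downstream window is thus partly transcribed sequence.

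Total counts ranged from 69588655 to 134790440 per culture. Prrx1 mRNA was 11.0% to 14.5% of the WT mean in mutant MEF, 52.5% to 77.7% in sgPrrx1 MEF, 43.7% to 44.4% in sgPrrx1 wound fibroblasts and 47.7% to 49.0% in sgPrrx1 MMTV-CAF. Editing need not lower mRNA, so that these values check the label of the mutant MEF more directly than those of the edited cells. Fibroblast markers were abundant in every group, led by Vim or a type I collagen gene. Their summed level was lower in each Prrx1-loss group than in its WT, from 8231 to 8379 CPM (counts scaled to library size) in WT wound fibroblasts against 3239 to 3255 CPM in sgPrrx1, for example. By the test of the next paragraph, 8 of 8 markers tested were called lower in mutant MEF and 7 of 8 in sgPrrx1 MEF. In wound fibroblasts 9 of 9 were called lower, and in MMTV-CAF 7 of 9. Called higher were Vim in sgPrrx1 MEF, and Pdgfra and Dcn in MMTV-CAF. Of all genes, 30.5%, 22.8%, 39.3% and 41.9% were called lower in these comparisons, and 29.4%, 20.3%, 38.3% and 41.2% higher. Lum, a fibroblast matrix gene, had 0 counts in mutant MEF and sgPrrx1 wound cultures. It was under 1 CPM in WT MEF and WT wound fibroblasts as well, and too low to be tested in MEF. The part of this shift in summed level in the results below was not tested. Of 13 endothelial markers, Tie1, Cldn5 and Sox17 had 0 counts in every culture, where 3 counts, the limit that a count of 0 allows, correspond to 0.0222 to 0.0444 CPM; these limits cover counting error only. In bulk cultures, fewer cells of a type and less RNA per cell cannot be told apart.

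Each Prrx1-loss group was compared with WT cultures of its own type by edgeR's quasi-likelihood test, and a gene was called at a Benjamini-Hochberg adjusted p under 0.05 over all genes tested. In mutant MEF 8 of the 9 genes were called, 5 lower and 3 higher, where 59.9% of all genes tested were called, 30.5% lower and 29.4% higher. In sgPrrx1 MEF 5 were called, 4 lower and 1 higher, against 43.1% of all genes, 22.8% lower and 20.3% higher. In sgPrrx1 wound fibroblasts all 9 were called, 5 lower and 4 higher, against 77.6% of all genes, 39.3% lower and 38.3% higher. In sgPrrx1 MMTV-CAF 8 were called, 3 lower and 5 higher, against 83.1%, 41.9% lower and 41.2% higher. The median log2 fold change of the 9 genes was -0.58, -0.78, -0.47 and 0.50 in these 4 comparisons, where that of all genes lay between -0.0032 and 0.0094. With a change of at least 2-fold required as well, 4, 2, 3 and 2 members passed, and 24.1%, 10.6%, 15.6% and 24.3% of all genes. The ranges of the 3 cultures did not overlap between Prrx1 loss and WT for 8, 7, 9 and 8 members, and for 68.1%, 56.5%, 80.2% and 84.8% of the genes tested. No member was lower in all 4 comparisons or higher in all 4, and 5 of 9 (55.6%) were called in both directions, as were 56.7% of the 12582 genes tested in all 4.

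**Figure D1:**
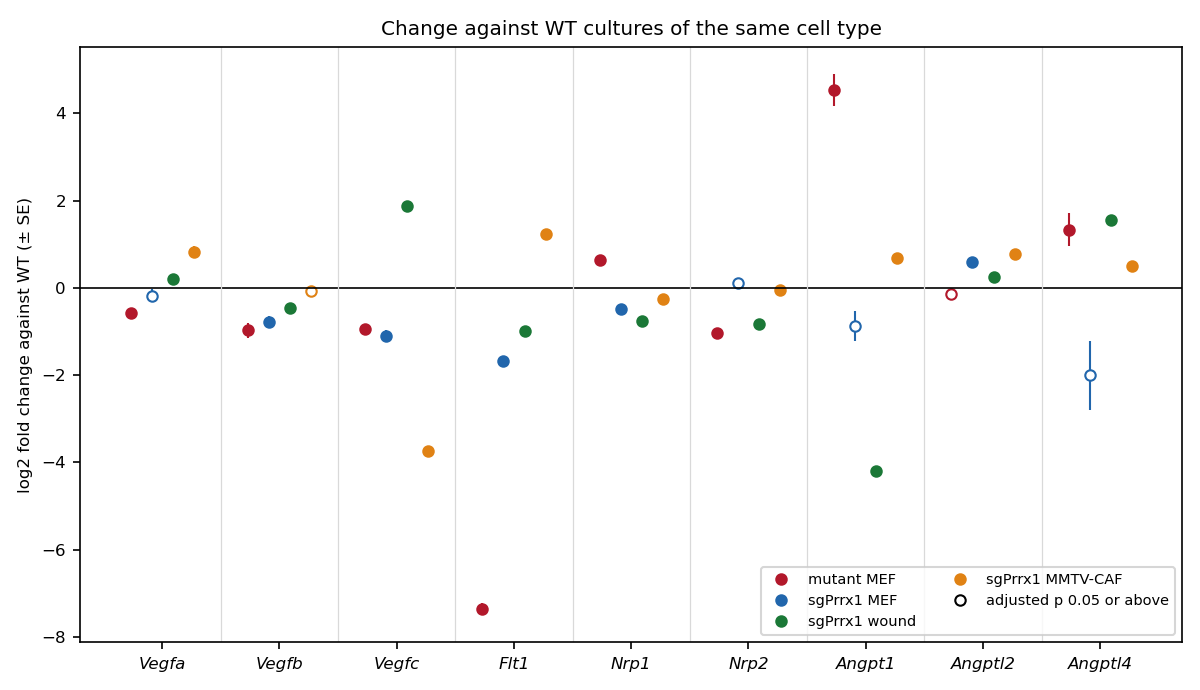
Log2 fold change (± SE) of each of the 9 genes against WT cultures of the same type, with 1 colour for each of the 4 comparisons and open circles where the adjusted p was 0.05 or above (edgeR, 3 against 3 cultures). The points farthest from 0 are Flt1 in mutant MEF at -7.36, Angpt1 in mutant MEF at 4.54 and in sgPrrx1 wound fibroblasts at -4.19, and Vegfc in sgPrrx1 MMTV-CAF at -3.73.

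Vegfa (chr17:46016993-46032377 on GRCm38, minus strand), the principal endothelial mitogen of the family, fell in mutant MEF and rose in both edited adult types. In WT MEF it stood at 61.2, 57.1 and 66.9 CPM, and in mutant MEF at 39.5, 37.7 and 48.9 CPM. All 3 mutant cultures lay below all 3 WT cultures, a log2 fold change of -0.58 ± 0.11 (SE; adjusted p = 0.00427). In sgPrrx1 MEF the cultures had 48.8, 68.4 and 48.0 CPM and straddled the WT range, a difference of -0.18 ± 0.15 that missed the threshold (adjusted p = 0.359); without sgPrrx1 MEF replicate 2, the high culture, it was -0.36 and passed (adjusted p = 0.0404). The tumor-derived cells held the highest Vegfa level of the series: WT MMTV-CAF had 185, 153 and 179 CPM and sgPrrx1 MMTV-CAF 343, 334 and 253 CPM. Here Vegfa rose 1.78-fold (log2 0.83 ± 0.12, adjusted p = 0.000279) with no overlap, although 1 edited culture lay well under the other two. Wound fibroblasts moved the same way but less, from 114, 107 and 109 CPM to 129, 127 and 126 CPM (log2 0.21 ± 0.03, adjusted p = 8.85e-05); with all 21 cultures sharing 1 estimate of spread, this small step missed the threshold (adjusted p = 0.184).

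Vegfb (chr19:6982472-6987651, minus strand), a ligand of FLT1 known for roles in fatty acid uptake and cardiac tissue more than in sprouting, fell in 3 of the 4 comparisons and rose in none. WT MEF cultures had 95.7, 92.0 and 69.9 CPM, mutant MEF 36.4, 42.3 and 54.6 CPM and sgPrrx1 MEF 57.7, 48.8 and 44.4 CPM. Every Prrx1-loss MEF culture thus lay below every WT MEF culture, by -0.98 ± 0.18 on the log2 scale in mutant MEF (adjusted p = 0.00289) and by -0.78 ± 0.15 in sgPrrx1 MEF (adjusted p = 0.00565). In wound fibroblasts the step was smaller and tighter, from 36.1, 36.9 and 39.5 CPM to 27.9, 26.4 and 27.0 CPM (-0.47 ± 0.04, adjusted p = 5.59e-06). MMTV-CAF showed values of 53.4, 56.4 and 54 CPM in WT and 52.6, 53.2 and 53.1 CPM after editing, a difference of -0.06 ± 0.03 (adjusted p = 0.0614). Scaling by library totals alone, which shifts the median of all genes in this comparison to 0.13, turned that difference to 0.07 (adjusted p = 0.0466), whereas RLE scaling (-0.07, adjusted p = 0.0424), a minimum of 10 counts in every culture (-0.07, 0.0371) and leaving out WT MMTV-CAF replicate 1 (-0.08, 0.0498) put it past the threshold as lower.

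Vegfc (chr8:54077532-54186454, plus strand), the lymphangiogenic ligand, changed in all 4 comparisons and in opposite directions in the 2 edited adult types. In WT wound fibroblasts it stood at 4.01, 3.74 and 3.72 CPM and in sgPrrx1 wound fibroblasts at 13.2, 14.4 and 14.3 CPM, 3.64-fold higher (log2 1.86 ± 0.06, adjusted p = 1.87e-08). In WT MMTV-CAF it was the highest of all groups at 18.1, 19.0 and 18.1 CPM, and editing left 1.35, 1.41 and 1.45 CPM, the lowest of all groups and 13.3-fold lower (log2 -3.73 ± 0.05, adjusted p = 3.32e-10). The edited wound cultures thus held more Vegfc than any edited MMTV-CAF culture, the reverse of the order in WT. Both MEF comparisons went down: WT MEF had 7.15, 7.14 and 7.07 CPM, mutant MEF 3.35, 4.16 and 3.74 CPM (log2 -0.95 ± 0.12, adjusted p = 0.000571) and sgPrrx1 MEF 2.87, 3.65 and 3.55 CPM (-1.10 ± 0.12, adjusted p = 0.000704). The groups did not overlap in any of the 4 comparisons.

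**Figure D2:**
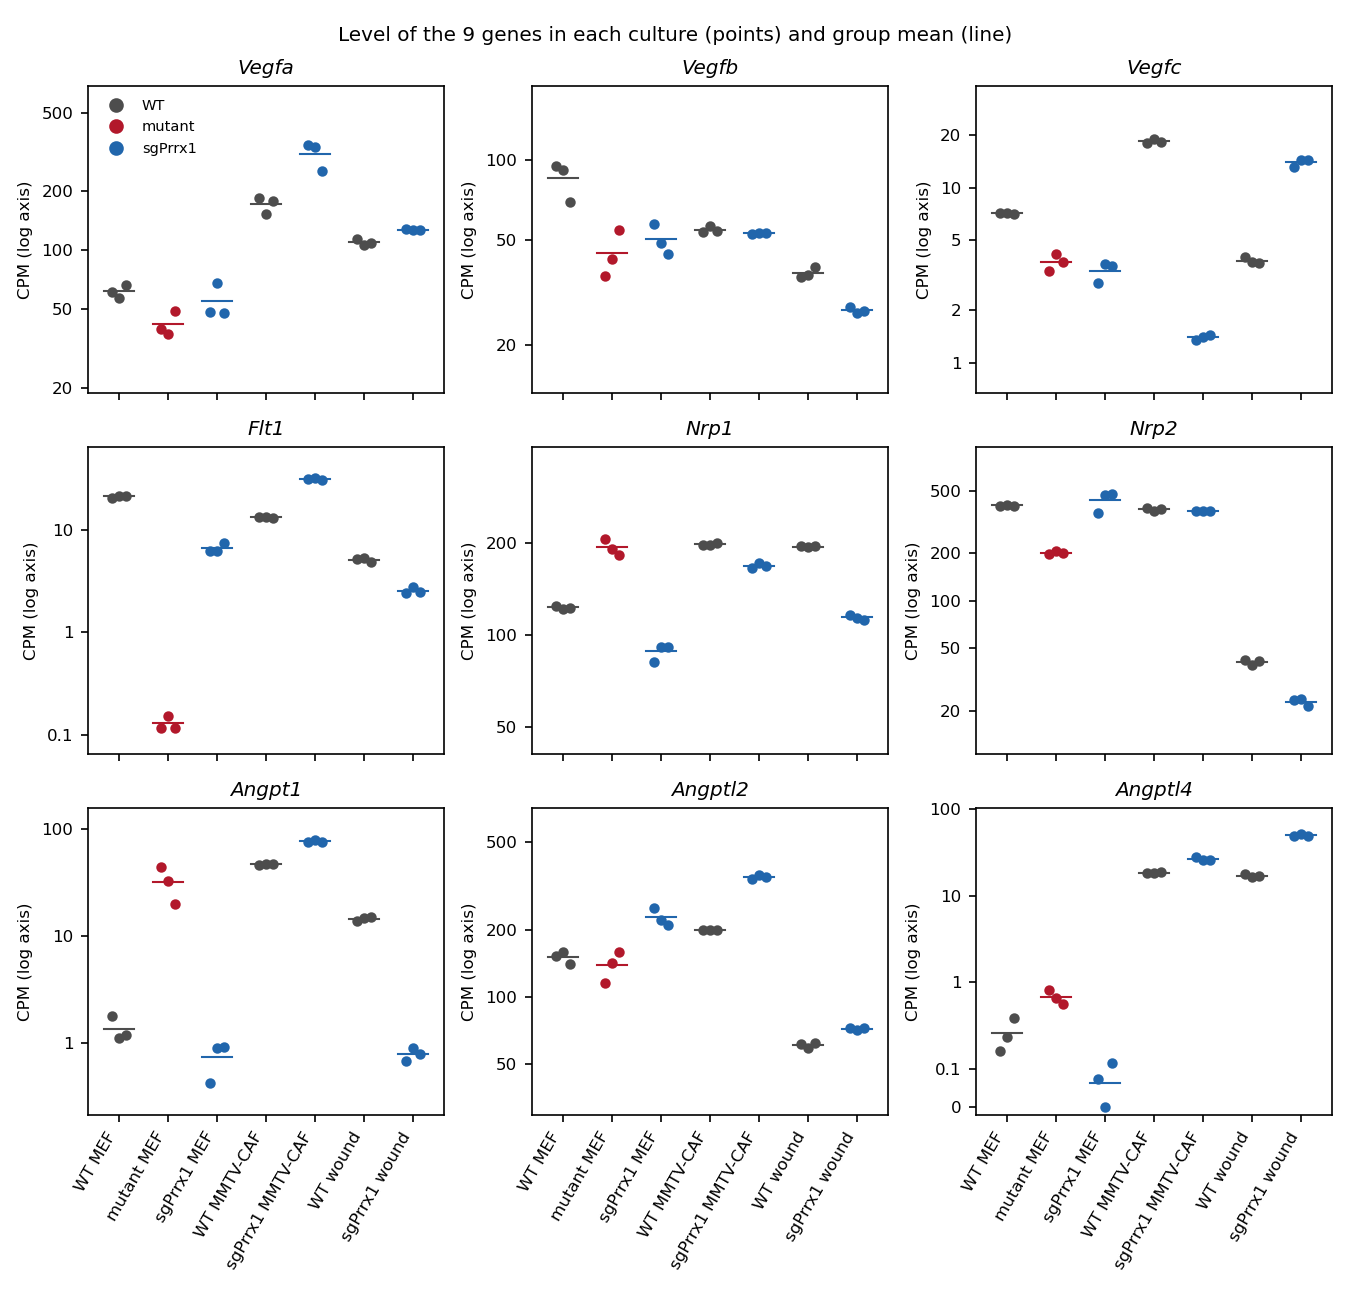
TMM-scaled CPM of each of the 9 genes (panels, log axes, drawn linearly under 0.1 CPM) in the 3 cultures of each of the 7 groups, with points for cultures, a line for the group mean and colours for WT, mutant and sgPrrx1. Flt1 in mutant MEF lies between 0.116 and 0.153 CPM, far under the 20.8 to 21.7 CPM of WT MEF, and Vegfc spans 1.35 to 1.45 CPM in sgPrrx1 MMTV-CAF and 13.2 to 14.4 CPM in sgPrrx1 wound fibroblasts.

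Flt1 (chr5:147561604-147726438, minus strand), the receptor and decoy for VEGFA and VEGFB, fell in both MEF comparisons and in wound fibroblasts and rose in MMTV-CAF. WT MEF cultures held 20.8, 21.7 and 21.6 CPM, from 1432 to 1878 counts. In mutant MEF 9, 13 and 8 counts remained, 0.116, 0.153 and 0.117 CPM, a 165-fold lower level (log2 -7.36 ± 0.14, adjusted p = 1.15e-06) whose size exceeded that of 98.2% of the genes tested. Flt1 passed the filter on low counts in this comparison through the WT cultures alone. sgPrrx1 MEF kept an intermediate 6.31, 6.20 and 7.53 CPM (-1.69 ± 0.10, adjusted p = 4.35e-05). In wound fibroblasts the level went from 5.19, 5.33 and 4.86 CPM to 2.45, 2.79 and 2.46 CPM (-1.0 ± 0.09, adjusted p = 1.03e-05). MMTV-CAF went the other way, from 13.5, 13.3 and 13.3 CPM to 31.9, 32.5 and 30.8 CPM (1.23 ± 0.03, adjusted p = 1.01e-08), the highest Flt1 level of the 7 groups. Flt1 is also transcribed by endothelial cells. The 13 endothelial markers together summed to 18.9 to 20.9 CPM in WT MEF, 12.3 to 15.3 CPM in mutant MEF and 5.78 to 8.52 CPM in sgPrrx1 MEF, with Tie1, Emcn, Cldn5 and Sox17 at 0 counts in all 3 groups. Of this list, Cdh5, Kdr and Vwf were called lower and Esam and Erg higher in mutant MEF (30.5% of all genes called lower, 29.4% higher). In sgPrrx1 MEF Kdr, Flt4 and Vwf were called lower and none higher (22.8% and 20.3%). In wound fibroblasts the 13 markers summed to 298 to 303 CPM in WT and 162 to 167 CPM after editing, with Kdr alone at 290 and 142 CPM. Kdr was called lower there and Flt4 higher (39.3% and 38.3%). In MMTV-CAF the markers summed to 4.16 to 5.06 CPM in WT and 2.25 to 2.79 CPM after editing. Of this list, Kdr, Flt4 and Tek were called lower in MMTV-CAF, and Esam and Erg higher (41.9% and 41.2%). Erg had 0 counts in WT MMTV-CAF and led the markers after editing at 0.882 CPM. It thus passed the filter on low counts through the edited cultures alone. The part of other cell types in the Flt1 values was not tested.

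The neuropilins differed from each other in which cells they changed in. Nrp1 (chr8:128358591-128505476, plus strand), coreceptor for VEGFA and semaphorin 3A, rose in mutant MEF and fell after editing in all 3 types. Its levels were 125, 122 and 123 CPM in WT MEF, 206, 192 and 183 CPM in mutant MEF and 82.0, 91.8 and 91.9 CPM in sgPrrx1 MEF. The 2 Prrx1-loss MEF groups therefore lay on opposite sides of WT without overlap (log2 0.63 ± 0.08, adjusted p = 0.000642, and -0.49 ± 0.07, adjusted p = 0.00198). In wound fibroblasts Nrp1 fell from 195, 194 and 196 CPM to 117, 114 and 112 CPM (-0.77 ± 0.02, adjusted p = 3.88e-09), and in MMTV-CAF from 198, 197 and 201 CPM to 166, 172 and 169 CPM (-0.25 ± 0.02, adjusted p = 3.94e-06). The microRNA gene Mir1903 lies within the Nrp1 exons in the Gencode M1 annotation, over 80 bases.

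Nrp2 (chr1:62703317-62818692, plus strand), the coreceptor for VEGFC and semaphorin 3F, fell in mutant MEF and in wound fibroblasts. WT MEF had 402, 408 and 401 CPM and mutant MEF 197, 206 and 201 CPM, a 2.04-fold lower level (log2 -1.03 ± 0.07, adjusted p = 2.91e-05). In sgPrrx1 MEF the cultures stood at 362, 472 and 474 CPM on both sides of WT (0.10 ± 0.11, adjusted p = 0.497); without the lowest of them, replicate 1, the difference was 0.22 and passed (adjusted p = 0.0358). Wound fibroblasts had far less Nrp2, 41.8, 39.3 and 41.3 CPM in WT and 23.6, 23.8 and 21.3 CPM after editing (-0.84 ± 0.04, adjusted p = 3.32e-07). In MMTV-CAF 389, 372 and 382 CPM in WT and 370, 373 and 375 CPM after editing overlapped. That difference of -0.05 ± 0.02 was called (adjusted p = 0.0353), but it turned to 0.08 with library totals alone (adjusted p = 0.00281). The call was lost with all 21 cultures in 1 model (-0.03, adjusted p = 0.729) and with no filter on low counts (-0.05, adjusted p = 0.0619). It was also lost without any 1 of WT MMTV-CAF replicates 1 and 3 or sgPrrx1 MMTV-CAF replicates 1, 2 and 3 (-0.06 to -0.03, adjusted p from 0.0602 to 0.127).

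Angpt1 (chr15:42424667-42676977, minus strand), the vessel-stabilizing TEK agonist, rose 23.2-fold in mutant MEF and fell 18.2-fold in sgPrrx1 wound fibroblasts. In WT MEF it was scarce at 1.80, 1.11 and 1.20 CPM, whereas mutant MEF held 43.6, 32.8 and 19.8 CPM. The mutant cultures differed among themselves by more than 2-fold, and all lay above all WT cultures (log2 4.54 ± 0.36, adjusted p = 6.89e-05). sgPrrx1 MEF did not show this rise: its cultures had 0.429, 0.901 and 0.916 CPM, all below WT MEF, a difference of -0.88 ± 0.34 (adjusted p = 0.0769; 0.0264 with all 21 cultures in 1 model and 0.0478 with DESeq2). In wound fibroblasts Angpt1 fell from 13.6, 14.5 and 15.0 CPM to 0.682, 0.901 and 0.786 CPM (log2 -4.19 ± 0.10, adjusted p = 2.35e-09). MMTV-CAF began at 45.8, 46.6 and 47.1 CPM and rose to 75.1, 77.9 and 75.3 CPM (0.69 ± 0.02, adjusted p = 4.94e-08). Angpt1 shares 283 bases of exon, 6.65% of its length, with Gm17473 in that annotation, and the library kit did not mark strand, so that reads from there cannot be assigned.

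Angptl2 (chr2:33215951-33247725, plus strand), a secreted factor of tissue remodelling and inflammation, rose in the 3 edited types and did not pass the test in mutant MEF. WT MEF had 154, 160 and 141 CPM, mutant MEF 116, 143 and 161 CPM with overlap (log2 -0.14 ± 0.12, adjusted p = 0.354), and sgPrrx1 MEF 253, 223 and 212 CPM without overlap (0.59 ± 0.09, adjusted p = 0.00254). MMTV-CAF rose from 201, 200 and 202 CPM to 340, 354 and 347 CPM (0.77 ± 0.02, adjusted p = 5.4e-09). The step in wound fibroblasts was from 61.5, 59.4 and 62.7 CPM to 72.7, 71.4 and 72.7 CPM (0.24 ± 0.03, adjusted p = 4.29e-05). The gene lies inside the span of Ralgps1, with no exon shared in the Gencode M1 annotation.

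Angptl4 (chr17:33774900-33781575, minus strand), the lipoprotein lipase inhibitor and a known target of hypoxia and PPAR signalling, rose in the edited adult types and was low in MEF, with 0 to 63 counts a culture. Wound fibroblasts went from 17.7, 16.6 and 16.8 CPM to 49.7, 51.8 and 49.0 CPM, 2.93-fold (log2 1.55 ± 0.04, adjusted p = 2.2e-09). MMTV-CAF went from 18.4, 18.2 and 19.1 CPM to 27.9, 26.2 and 26.0 CPM (0.50 ± 0.04, adjusted p = 5.85e-06). In both types every edited culture lay above every WT culture. WT MEF cultures had 11, 16 and 34 counts, mutant MEF 63, 55 and 38 and sgPrrx1 MEF 5, 0 and 9, which are 0.16 to 0.391 CPM, 0.558 to 0.813 CPM and 0 to 0.116 CPM. The rise in mutant MEF (1.33 ± 0.38, adjusted p = 0.0204) missed the threshold without WT MEF replicate 1 or 2 or mutant MEF replicate 1 or 2 (1.08 to 1.37, adjusted p from 0.0542 to 0.0682). In sgPrrx1 MEF the difference was -2.0 ± 0.79 (adjusted p = 0.0768), on a gene that passed the filter through the WT cultures alone, and it was -2.01 and past the threshold with all 21 cultures in 1 model (adjusted p = 0.00114). It was -2.78 without sgPrrx1 MEF replicate 3 and -1.44 without sgPrrx1 MEF replicate 2, neither past the threshold.

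The 2 ways of losing Prrx1 in MEF were then set against each other directly. Of the 9 genes, 6 differed between sgPrrx1 MEF and mutant MEF, 3 lower and 3 higher, where 56.2% of all genes were called, 28.4% lower and 27.8% higher. Flt1 was 51-fold higher in sgPrrx1 MEF (log2 5.67 ± 0.17, adjusted p = 2.5e-06), Nrp2 2.17-fold higher and Angptl2 1.65-fold higher. Angpt1 was 42.5-fold lower (log2 -5.41 ± 0.42, adjusted p = 8.2e-05), Angptl4 10.1-fold lower on few counts (log2 -3.33, -4.12 without sgPrrx1 MEF replicate 3 and -2.79 without sgPrrx1 MEF replicate 2) and Nrp1 2.18-fold lower. In this comparison Flt1 passed the filter on low counts through the sgPrrx1 MEF cultures alone, and Angptl4 through the mutant MEF cultures alone. The 3 ligands Vegfa, Vegfb and Vegfc differed by 0.40 ± 0.17, 0.19 ± 0.17 and -0.15 ± 0.14, none past the threshold (adjusted p = 0.0872, 0.373 and 0.376; 0.0180 for Vegfa with all 21 cultures in 1 model). The mutant allele, backcrossed to C57BL/6, was present from conception, the edit was made in cultured cells, and Prrx1 mRNA differed between them as given above; which of these moves with the differences cannot be told apart.

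Among the WT types the family had distinct profiles. Compared per kb of exon, where genes can be set side by side, Vegfb led in WT MEF at 53.5 ± 8.71 CPM per kb (SD, n = 3), ahead of Nrp2 at 42.5 ± 0.38. Nrp1 led in WT wound fibroblasts at 33.0 ± 0.18 CPM per kb, ahead of Vegfa at 25.6 ± 0.87. In WT MMTV-CAF Vegfa and Nrp2 led at 40.2 ± 3.93 and 40.1 ± 0.94 CPM per kb, with overlapping ranges. Flt1 was low per length in all 3 types, from 0.443 CPM per kb in wound fibroblasts to 1.84 CPM per kb in MEF. Exon lengths came from an annotation of the preceding genome build and are approximate for the counted gene models.

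**Figure D3:**
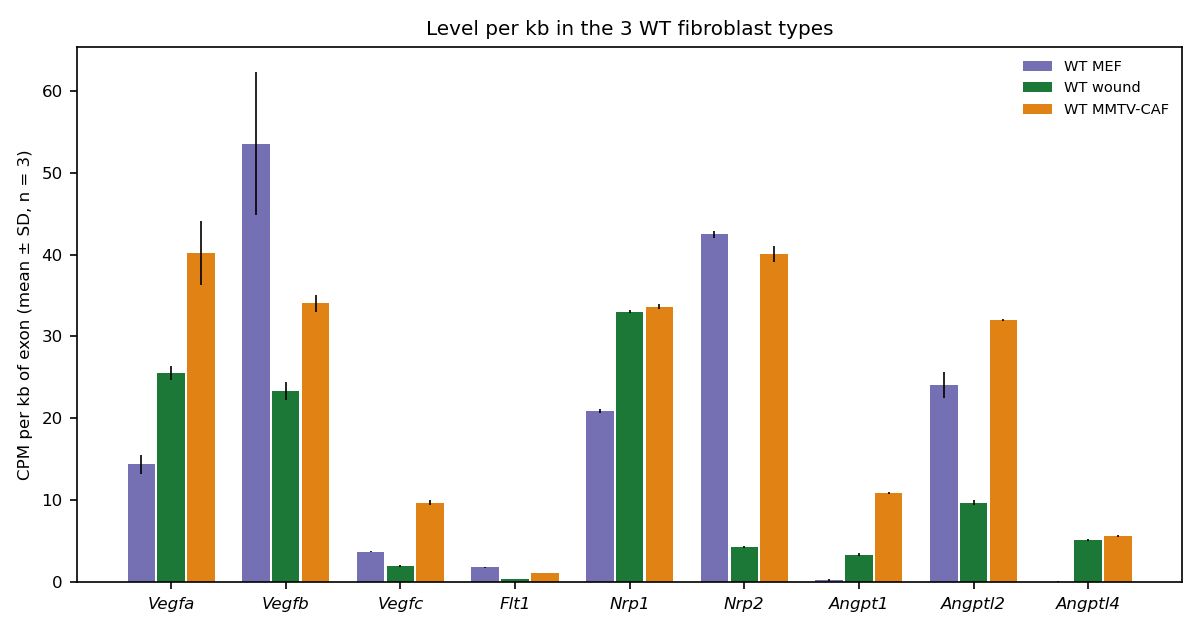
Level of the 9 genes in the 3 WT fibroblast types, as CPM per kb of exon (bars start at 0, mean ± SD of 3 cultures). Angpt1 and Angptl4 are near 0 in WT MEF, at 0.321 and 0.0792 CPM per kb, and Nrp2 is at 4.29 CPM per kb in WT wound fibroblasts against 42.5 and 40.1 CPM per kb in WT MEF and WT MMTV-CAF.

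For levels of 1 gene between types, all 21 cultures were fitted together. All 9 genes differed between WT wound fibroblasts and WT MEF, 5 lower and 4 higher (77.4% of all genes called, 38.7% lower and 38.7% higher). Angptl4 was 63.1-fold higher in wound fibroblasts (log2 5.98 ± 0.22, and 6.44 without WT MEF replicate 3) and Angpt1 10.6-fold higher (3.40 ± 0.25), while Nrp2 was 9.89-fold lower (-3.31 ± 0.08) and Flt1 4.17-fold lower (-2.06 ± 0.08). Between WT MMTV-CAF and WT MEF 8 genes differed, 2 lower and 6 higher (76.1% of all genes called, 35.5% lower and 40.6% higher), led by Angptl4 at 68.9-fold (log2 6.11, and 6.57 without WT MEF replicate 3) and Angpt1 at 34.1-fold higher; Nrp2 differed by -0.08 ± 0.07 (adjusted p = 0.316). Between WT MMTV-CAF and WT wound fibroblasts 7 differed, all higher in MMTV-CAF, where 76.8% of all genes were called, 36.8% lower and 40% higher. Nrp2 was 9.34-fold, Vegfc 4.81-fold, Angptl2 3.29-fold and Angpt1 3.23-fold higher there, whereas Nrp1 (0.03 ± 0.05, adjusted p = 0.607) and Angptl4 (0.13 ± 0.15, adjusted p = 0.457) missed the threshold. Cell type and tissue of origin differ together between these groups, and so does strain where MMTV-CAF (FVB/NJ) is compared, and cannot be told apart.

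With each gene's 7 groups ordered by level, the neighbours whose ranges overlapped were sgPrrx1 MEF with WT MEF and with mutant MEF for Vegfa; the run from sgPrrx1 MMTV-CAF through sgPrrx1 MEF and mutant MEF to WT wound for Vegfb, with 3 overlaps; mutant MEF with WT wound and with sgPrrx1 MEF for Vegfc; WT wound with mutant MEF for Nrp1; sgPrrx1 MEF with WT MEF and WT with sgPrrx1 MMTV-CAF for Nrp2; sgPrrx1 wound with sgPrrx1 MEF for Angpt1; and WT with mutant MEF for Angptl2. Flt1 and Angptl4 had no overlap at any step.

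Of the other receptors of the same axis, Kdr was called lower in all 4 comparisons and Flt4 was called in both directions. Kdr, the main signalling receptor for VEGFA and usually endothelial, stood at 290 ± 3.12 CPM in WT wound fibroblasts (SD, n = 3) and at 142 ± 2.77 CPM after editing (log2 -1.04 ± 0.02). Of the 13 endothelial markers only Kdr and Flt4 reached 1 CPM in the wound cultures, and Pecam1, Tie1, Cldn5, Erg and Sox17 had 0 counts in all 6. In WT MEF Kdr was at 3.64 ± 0.07 CPM, against 1.49 ± 0.22 CPM in mutant and 0.223 ± 0.13 CPM in sgPrrx1 MEF, and in MMTV-CAF 76 to 147 counts in WT stood against 0 to 3 after editing. In MMTV-CAF both Kdr and Flt4 passed the filter on low counts through the WT cultures alone. So did Kdr in sgPrrx1 MEF, with 5 to 22 counts against 247 to 320 in WT MEF. Flt4, the VEGFC receptor, rose in wound fibroblasts from 10.2 ± 0.44 to 21.6 ± 0.29 CPM (log2 1.08 ± 0.04), the type in which Vegfc rose. It fell in sgPrrx1 MEF from 10.7 ± 0.59 to 3.96 ± 0.74 CPM and stood at 10.8 ± 1.24 CPM in mutant MEF (adjusted p = 0.883); in MMTV-CAF 16 to 23 counts stood against 0 to 3.

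Tie1 had 0 counts in all cultures, and Tek, the ANGPT1 receptor, reached 1 CPM in WT MMTV-CAF alone of the 7 groups, at 2.16 ± 0.23 CPM, against 0.072 ± 0.016 CPM after editing (log2 -4.91 ± 0.21). Angpt2, the context-dependent TEK antagonist, fell in all 4 comparisons, with log2 fold changes of -1.27 in mutant MEF, -0.90 in sgPrrx1 MEF, -0.44 in wound fibroblasts and -1.78 in MMTV-CAF, in the last from 37.8 ± 1.15 to 11.1 ± 0.42 CPM. Pgf, placental growth factor and a further FLT1 ligand, fell in mutant MEF (-2.29 ± 0.32) and rose in MMTV-CAF (1.18 ± 0.16) from levels near 1 CPM. Vegfd, another lymphangiogenic ligand, fell in mutant MEF (-1.10 ± 0.10), sgPrrx1 MEF (-0.72 ± 0.07) and wound fibroblasts (-2.39 ± 0.03, from 63.4 ± 1.58 to 12.1 ± 0.12 CPM). In MMTV-CAF Vegfd stood at 146 ± 3.58 CPM in WT and 143 ± 3.30 CPM after editing (-0.05 ± 0.03, adjusted p = 0.0802). Angpt4, a further TEK ligand, was called lower in wound fibroblasts, with 157 to 203 counts in WT against 0 to 10 after editing, and passed the filter there through the WT cultures alone. So did Tek in MMTV-CAF. Angpt4 was also called lower in MMTV-CAF (-0.53 ± 0.05, from 12.5 ± 0.11 to 8.76 ± 0.49 CPM) and was not tested in MEF. Of the 8 genes in this list, 4 of 5 tested were called lower in each MEF comparison with none higher, 4 lower and 1 higher of 6 in wound fibroblasts, and 5 lower and 1 higher of 7 in MMTV-CAF. Medians over the tested members were -1.27, -0.90, -0.74 and -1.78. For this list and those that follow, the shares of all genes called lower in the same 4 comparisons were 30.5%, 22.8%, 39.3% and 41.9%, those called higher 29.4%, 20.3%, 38.3% and 41.2%, and the median of all genes lay between -0.0032 and 0.0094.

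**Figure D4:**
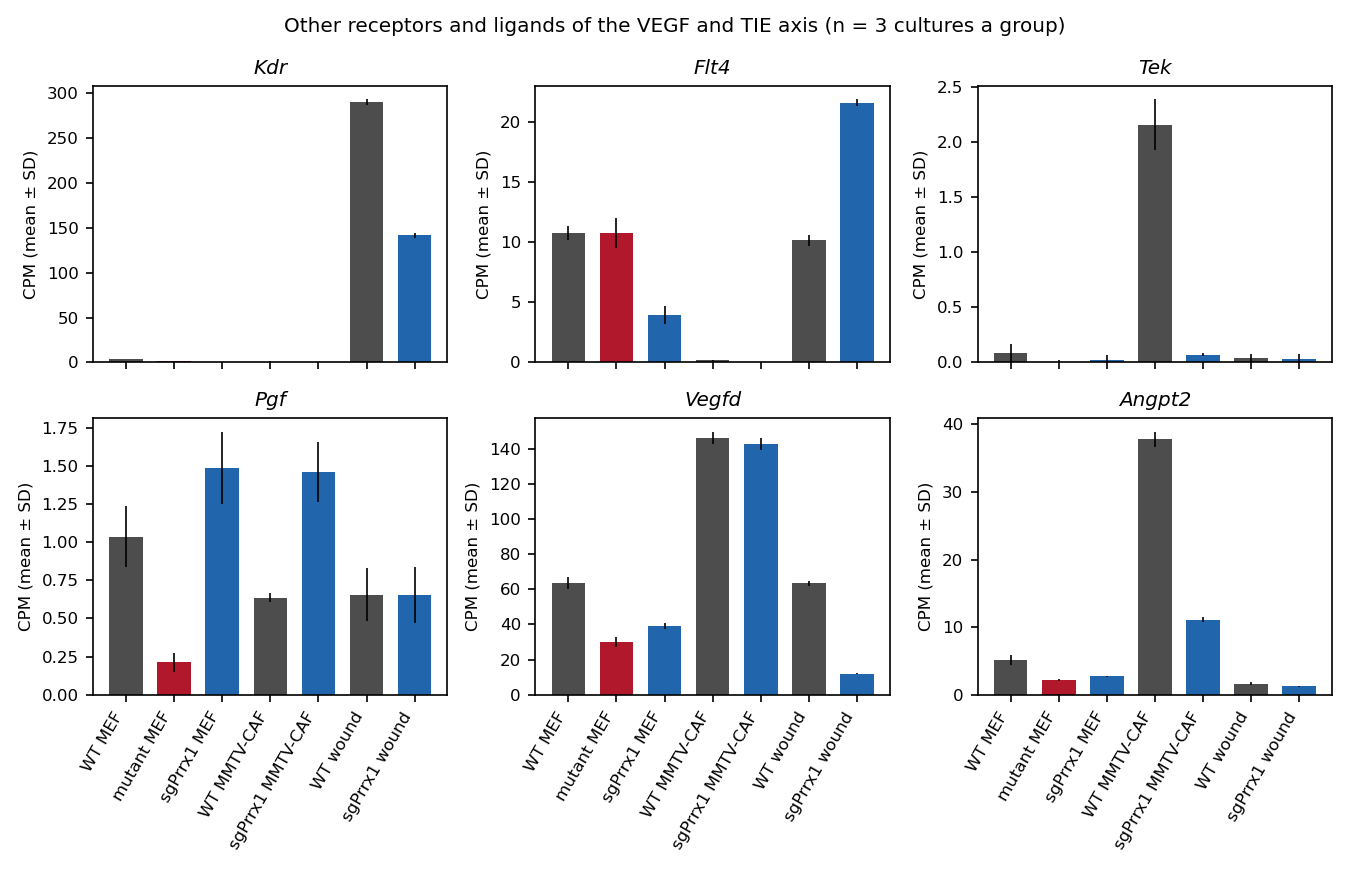
CPM (mean ± SD of 3 cultures, bars from 0) of 6 further ligands and receptors of the VEGF and TIE axis in the 7 groups, with colours for WT, mutant and sgPrrx1. Kdr reaches 290 CPM in WT wound fibroblasts and 142 CPM in sgPrrx1 wound fibroblasts, Flt4 rises there from 10.2 to 21.6 CPM, and Angpt2 falls in MMTV-CAF from 37.8 to 11.1 CPM.

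Among genes that process VEGFC and VEGFA, 4 of 6 tested in wound fibroblasts rose and 1 fell, and in MMTV-CAF 1 rose and 5 fell; in mutant MEF 2 of 5 fell, in sgPrrx1 MEF 3 of 5 fell, and none rose. Adamts3, the protease that matures VEGFC, rose in wound fibroblasts from 8.25 ± 0.22 to 37.9 ± 1.22 CPM (log2 2.20 ± 0.04) and in MMTV-CAF from 8.40 ± 0.40 to 26.9 ± 0.998 CPM (1.66 ± 0.05). Its cofactor Ccbe1 rose in wound fibroblasts (0.71 ± 0.13) and fell in MMTV-CAF (-2.10 ± 0.11). Adamts1, a protease that also traps VEGFA, fell in all 4 comparisons, its log2 changes being -1.30 in mutant MEF, -2.50 in sgPrrx1 MEF, -1.46 in wound fibroblasts and -2.0 in MMTV-CAF.

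On the lipoprotein lipase side of Angptl4, the lipase gene Lpl itself fell in all 4 comparisons, with log2 fold changes of -4.99 in mutant MEF (from 79.6 ± 4.73 to 2.54 ± 0.14 CPM), -1.18 in sgPrrx1 MEF, -2.34 in wound fibroblasts and -1.09 in MMTV-CAF (from 920 ± 14.9 to 439 ± 3.67 CPM). Lmf1, needed for lipase maturation, fell in 3 and rose in wound fibroblasts (0.49 ± 0.05). Of the 5 genes in this list only these 2 were expressed enough to be tested. Among the 5 other angiopoietin-like genes 1 was tested in each of the MEF and wound comparisons, where Angptl6 fell in mutant MEF (-0.66 ± 0.21), and 3 in MMTV-CAF, where Angptl6 fell (-1.12 ± 0.10) and Angptl7, under 1 CPM in both groups and named because the count is 1, was called higher at 0.131 ± 0.038 CPM against 0 counts in WT, having passed the filter through the edited cultures alone.

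Class 3 semaphorins and plexins, are the other partners of the neuropilins. In mutant MEF 7 of 12 fell and 3 rose (59.9% of all genes called), in sgPrrx1 MEF 7 fell and 3 rose (43.1%), in wound fibroblasts 5 of 11 fell and 4 rose (77.6%), and in MMTV-CAF 10 of 12 fell and 1 rose (83.1%), with medians of -0.56, -0.45, -0.09 and -0.72. Sema3b, a ligand of both neuropilins, and Plxna2, a signalling partner, fell in all 4 comparisons. Plxna4 fell in mutant MEF from 5.58 ± 0.47 to 0.228 ± 0.038 CPM (log2 -4.63 ± 0.19), where Sema3d rose from 1.18 ± 0.14 to 11.7 ± 0.22 CPM (3.28 ± 0.14). Sema3e, which binds PLXND1 without a neuropilin, rose in wound fibroblasts from 63.7 ± 0.54 to 231 ± 1.13 CPM (1.85 ± 0.02). Sema3c fell in MMTV-CAF from 133 ± 2.36 to 4.05 ± 0.18 CPM (log2 -5.06 ± 0.04), as did Plxna4 from 20.1 ± 0.88 to 0.389 ± 0.13 CPM (-5.71 ± 0.15). Sema3d, higher in mutant MEF, fell there from 11.7 ± 0.53 to 0.0415 ± 0.037 CPM (-8.21 ± 0.28), having passed the filter through the WT cultures alone.

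Regulators of Vegfa and Angptl4 in oxygen sensing and PPAR signalling split. Of 11, 3 fell and 3 rose in each MEF comparison, 3 fell and 6 rose in wound fibroblasts and 5 fell and 5 rose in MMTV-CAF. Egln3, a hypoxia-induced prolyl hydroxylase, was called higher in all 4 comparisons, by 2.30, 0.53, 0.61 and 6.22, in MMTV-CAF from 0.386 ± 0.026 to 29.3 ± 0.63 CPM. Pparg rose in mutant MEF (2.86 ± 0.14) and sgPrrx1 MEF (0.51 ± 0.15). It fell in wound fibroblasts (-0.69 ± 0.09) and MMTV-CAF (-3.09 ± 0.09). Epas1 fell from 3.91 ± 1.30 CPM in WT MEF, by -2.49 ± 0.31 in mutant MEF and -3.94 ± 0.34 in sgPrrx1 MEF. It also fell in MMTV-CAF (-0.32 ± 0.08) and missed the threshold in wound fibroblasts (0.36 ± 0.44, adjusted p = 0.465).

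Of 7 secreted inhibitors of angiogenesis, 3 fell and 2 rose in mutant MEF, 5 fell and none rose in sgPrrx1 MEF, 3 fell and 3 rose in wound fibroblasts, and 5 fell and 1 rose in MMTV-CAF. Serpinf1, which encodes PEDF, and Timp3, which blocks VEGFA binding to KDR, fell in all 4; the log2 fold changes of Serpinf1 were -2.64, -1.04, -2.62 and -1.06. Thbs2 fell in sgPrrx1 MEF from 322 ± 40.3 to 15.7 ± 2.52 CPM (-4.38 ± 0.16). Of 11 other secreted angiogenic factors, 6 fell and 4 rose in mutant MEF, 5 fell and 2 rose in sgPrrx1 MEF, 4 of 10 tested fell and 5 rose in wound fibroblasts, and 3 fell and 7 rose in MMTV-CAF. Apln and Hdgf rose in all 4. Hgf rose in mutant MEF from 0.621 ± 0.057 to 49.6 ± 1.89 CPM (6.30 ± 0.12) and rose in MMTV-CAF from 312 ± 6.00 to 915 ± 15.2 CPM (1.53 ± 0.02), and it fell in wound fibroblasts from 6.79 ± 0.97 to 1.60 ± 0.25 CPM (-2.10 ± 0.15). Adm fell in wound fibroblasts from 61.5 ± 1.54 to 1.56 ± 0.17 CPM (-5.31 ± 0.06).

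Whether the effect of editing differed between types was tested directly, as the difference of 2 sgPrrx1-minus-WT changes. Between wound fibroblasts and MEF it differed for 7 of 9 genes (55.6% of all genes), between MMTV-CAF and MEF for 7 (56.1%) and between MMTV-CAF and wound fibroblasts for all 9 (63%). Vegfc differed most between MMTV-CAF and wound fibroblasts, by -5.58 ± 0.13 on the log2 scale (adjusted p = 2.3e-16), followed by Angpt1 at 4.90 ± 0.34 (adjusted p = 6.24e-10) and Flt1 at 2.24 ± 0.11 (adjusted p = 3.27e-12). Vegfa and Vegfb did not pass between wound fibroblasts and MEF (adjusted p = 0.0993 and 0.162), nor did Nrp2 and Angptl2 between MMTV-CAF and MEF (adjusted p = 0.262 and 0.203).

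Across the 21 cultures, as a description over 7 groups that share libraries and cell lines and with no p given, the gene whose log2 CPM followed that of a member most closely was Mark1 for Vegfa (Pearson r = 0.976), Mtch1 for Vegfb (0.961), Acsbg1 for Vegfc (0.954), Lipg for Flt1 (0.973), Rab8b for Nrp1 (0.973), Mtmr3 for Nrp2 (0.991), Akr1c14 for Angpt1 (0.974), Ezh1 for Angptl2 (0.968) and Cep95 for Angptl4 (0.969). Among the 3 closest genes, Adamts3 was one for Angptl4 (0.962) and Tgfb2 one for Nrp1 (0.960). Among pairs of members, Nrp1 with Angpt1 (0.898), Nrp2 with Angptl2 (0.878) and Vegfb with Nrp2 (0.810) had the highest values. With 7 groups of near-identical cultures, such values reflect few independent levels.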

How the data were processed

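RNA-seq libraries of 21 cultures were made with the TruSeq RNA v2 kit, which does not mark strand, and sequenced from both ends on an Illumina HiSeq instrument. The authors trimmed reads with Trimmomatic, aligned them with STAR to mm10 and counted with HTSeq, and deposited whole-number counts per gene in 3 tables. The study's methods also name ComBat-seq, a batch adjustment of counts, for its bulk RNA-seq; whether the deposited mouse tables were adjusted is not given in the sources used here. Wound columns were matched to wound samples because the other cell types are named in the other columns. All columns of the tables were used.

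Counts were tested with edgeR 4.0.16 in R 4.3.3 (TMM scaling, filterByExpr, quasi-likelihood F test, two-sided, Benjamini-Hochberg adjustment over all genes tested, called at an adjusted p under 0.05). Each Prrx1-loss group and its WT were fitted alone with 6 cultures, and WT types and differences between types in 1 model of all 21. SE is the log2 fold change divided by the square root of F. CPM were scaled by TMM over all 21 cultures. Exon lengths came from Gencode M1 on NCBIM37, and loci and promoters from RefSeq on GRCm38.p6, with no coordinate converted. The tests were run on simulated counts first. DESeq2 1.42.0, other scalings and filters, a replicate block and leaving out each culture were tried as alternatives. The GC box was added to the motifs after the promoters had been seen. The members, the gene lists and the alternatives were chosen with earlier results of these data known. Named genes were the members, Kdr, Flt4, Tek, Tie1, Pgf and Angpt2, and from the lists a choice, per comparison, from the 3 called genes with the largest change among those with a group mean of at least 1 CPM, with genes called in 1 direction in all 4 comparisons; Vegfd and Angpt4 were added after their values were seen.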

Additional observations from a re-analysis of the deposited data

Results flagged for a closer look

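The following differences between types in the change that went with editing (sgPrrx1 minus WT, log2 scale, 1 edgeR model of all 21 cultures) passed the test of the difference itself. Between wound fibroblasts and MEF they were 2.95 for Vegfc, 0.68 for Flt1, -0.29 for Nrp1, -0.94 for Nrp2, -3.33 for Angpt1, -0.36 for Angptl2 and 3.57 for Angptl4, positive where the change in wound fibroblasts was the higher. Between MMTV-CAF and MEF they were 1.01 for Vegfa, 0.73 for Vegfb, -2.63 for Vegfc, 2.92 for Flt1, 0.25 for Nrp1, 1.56 for Angpt1 and 2.53 for Angptl4, positive where the change in MMTV-CAF was the higher. Between MMTV-CAF and wound fibroblasts they were 0.63 for Vegfa, 0.42 for Vegfb, -5.58 for Vegfc, 2.24 for Flt1, 0.54 for Nrp1, 0.80 for Nrp2, 4.90 for Angpt1, 0.55 for Angptl2 and -1.03 for Angptl4. The Angptl4 and Angpt1 values against MEF rest on MEF cultures with few counts, 0 to 34 for Angptl4 and 29 to 124 for Angpt1. Without sgPrrx1 MEF replicate 3 the Angptl4 values were 4.34 (wound fibroblasts) and 3.34 (MMTV-CAF), and without sgPrrx1 MEF replicate 2 they were 3.0 and 2.0.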

How the results depend on the processing

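Over the 4 comparisons with WT, 326 of 357 results of single members under other settings kept their direction and side of the threshold, 24 missed it, 5 newly passed it and 2 reversed; of the 216 with 1 culture left out, 204 kept both. Requiring a change of 2-fold as well left 4 members in mutant MEF, 2 in sgPrrx1 MEF, 3 in wound fibroblasts, 2 in MMTV-CAF, 4 between WT MMTV-CAF and WT MEF, and among differences between types 3 for wound against MEF and 4 for MMTV-CAF against wound. The shares of all genes at 2-fold are given above for the comparisons with WT of the same type and not here for the others. With 1 culture left out, the counts ranged from 7 to 8 in mutant MEF, 5 to 6 in sgPrrx1 MEF and 7 to 8 in MMTV-CAF, stayed at 9 in wound fibroblasts, and ranged from 6 to 8, 7 to 8 and 8 to 9 for the differences between types. Reversed were Vegfb and Nrp2 in MMTV-CAF with library totals only (0.0708 and 0.0821, where the median of all genes shifted to 0.13), and Nrp1 between WT MMTV-CAF and WT wound fibroblasts with RLE scaling (-0.0215), DESeq2 (-0.0215) and with 1 culture left out (-0.0372 to 0.0324, below 0 without WT wound replicate 1 or 2). The Vegfb and Nrp2 values passed the threshold after reversing (adjusted p = 0.0466 and 0.00281) and the Nrp1 values did not; the cause was not tested. Deviations of same-numbered cultures from their group means correlated by -0.22 to 0.13, which cannot settle whether these cultures shared a preparation. With a replicate block 7 members were called in mutant MEF (6457 of all 13616 genes tested), 5 in sgPrrx1 MEF (6629 of 13372), 9 in wound fibroblasts (10519 of 13939) and 7 in MMTV-CAF (11320 of 13903). Angptl4 in mutant MEF (adjusted p = 0.0758) and Nrp2 in MMTV-CAF (0.0655) were lost. Among differences between types, Vegfb between MMTV-CAF and wound fibroblasts (0.42) was lost with no filter (adjusted p = 0.0682), with the block (0.125) and without any 1 of 11 cultures. For wound against MEF, Angptl2 was lost with library totals (0.0621), with the block (0.0739) and without sgPrrx1 MEF replicate 1 (0.0531), and Nrp1 with library totals (0.161). Gained with library totals were Vegfa (0.0255) and Vegfb (0.0194) for wound against MEF and Angptl2 for MMTV-CAF against MEF (0.0061). With 1 culture left out, Vegfa was gained without sgPrrx1 MEF replicate 2 (0.0111), Vegfb without WT MEF replicate 3 (0.0339), both for wound against MEF, and Nrp2 for MMTV-CAF against MEF without sgPrrx1 MEF replicate 1 (0.00393). Depth limits Angptl4 in MEF, with 0 to 63 counts a culture.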
